A study of Homo sapiens with 8 samples.

Results

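The genes of DNA replication licensing and of the replication fork were followed through MEK inhibition, histone deacetylase inhibition and both in 92.1 cells, an established human uveal melanoma line. The set held 43 genes, chosen by symbol, of 18406 symbols in the table, and all 43 were found. RNA was sequenced after 24 h in 4 groups of 2 libraries, 8 in all. One group received 10 nM trametinib, an inhibitor of the kinases MEK1 and MEK2, and one received 10 nM panobinostat, an inhibitor of histone deacetylases. One received trametinib plus panobinostat, and one received vehicle (DMSO). The label of the combination gives 10 nM once, and each drug was taken to be at that dose. The label of the panobinostat libraries also carries the abbreviation for a MEK inhibitor, and the drug name was followed. All groups share a single cell line, grown in serum. The sample records of the panobinostat and combination libraries are numbered apart from those of the vehicle and trametinib libraries. Between a group with panobinostat and one without it, the drug and any difference between these sets of libraries cannot be told apart. Whether the sets were handled alike was not tested.

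Cells license their DNA for replication by loading the MCM helicase onto origins in G1, and then activate it in S phase. Origin recognition proteins, CDC6 and CDT1 load the MCM ring, geminin (GMNN) blocks CDT1 from loading it again, and the kinase CDC7 with its partner DBF4 starts the conversion of the ring into the active helicase of CDC45, MCM and GINS. Polymerase alpha-primase then lays primers, polymerases delta and epsilon extend them on the PCNA clamp that the RFC complex loads, RPA covers the exposed single strands, and FEN1 with LIG1 joins the fragments. Many of these genes are known targets of the E2F transcription factors, which RB proteins hold back until growth signals, among them MEK and ERK signals, lead to RB phosphorylation.

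All 8 libraries carried melanocyte transcripts: all 7 listed melanocyte markers were in the table and none was at 0 in any library. DCT was low in vehicle libraries (14.4 and 4.75) and panobinostat libraries (5.10 and 10.1). It had 1984 and 1912 in trametinib libraries and 258 and 236 in combination libraries. Of 20 listed markers of endothelial, fibroblast, immune, epithelial and red blood cells, 15 were in the table. Between 8 and 9 of these were at 0 in trametinib libraries, 4 to 6 in panobinostat libraries, 5 to 6 in combination libraries and 4 to 6 in vehicle libraries, and the endothelial markers PECAM1 and CDH5 held at most 3.06 in any library. Their summed value was 1455 to 1746 with trametinib, 2032 to 2132 with panobinostat and 1682 to 1756 with the combination, against 794 to 819 with vehicle, mostly CD68 and COL1A1, and the part of other cells in the results was not tested. DUSP6 and CCND1 were used as a check of the drug labels. DUSP6, an ERK target, had 0 and 0 normalised reads (reads divided by the size factor of the library) in trametinib libraries. It had 627 and 583 in panobinostat libraries and 3.51 and 4.56 in combination libraries, against 577 and 567 in vehicle libraries. CCND1 had 785 and 632 in trametinib libraries and 11074 and 10677 in panobinostat libraries. It had 1191 and 1114 in combination libraries, against 7030.2 and 7329.5 in vehicle libraries. Both trametinib libraries stood apart, replicate 2 the more so. Trametinib replicate 2 had 5362 genes at 0, against 3743 in trametinib replicate 1 and 2222 to 2890 in the other libraries. Of detected genes, 2.10% held 1 to 5 reads in trametinib replicate 2 and 6.74% in replicate 1, against 9.93% to 13.3% in the other libraries. The trametinib replicates correlated at r = 0.897 across 13320 genes, and those of the other groups at 0.974 to 0.991. Among the 43 replication genes, the median absolute log2 difference between replicates was 0.563 with trametinib, 0.183 with panobinostat and 0.211 with the combination, against 0.079 with vehicle.

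Most of the replication set fell under each treatment. Levels are given in normalised reads, and changes as limma estimates ± SE on the log2(value + 1) scale. With trametinib, 42 of 43 genes passed the test as lower and none as higher (limma, Benjamini-Hochberg adjusted p under 0.05), where 27.4% of all 13320 genes tested passed as lower and 23.7% as higher. With panobinostat 33 of 43 were lower and none higher, against 15.6% and 15% of all genes tested. With the combination 41 of 43 were lower and none higher, against 25.5% and 24.5%. The median log2 change of the 43 genes was -2.73 with trametinib, -1.50 with panobinostat and -2.26 with the combination, where the medians of all tested genes were -0.07, 0.00 and 0.03. At an unadjusted p under 0.05 no member was higher in any of these 3 comparisons, and edgeR and DESeq2 on recovered reads also called 0 higher.

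In all 43 genes all 6 treated libraries lay below both vehicle libraries, as they did in 23.1% of all 13320 genes tested. As a share of the vehicle mean, the treated means spanned 2.28% (CDC45) to 61.4% (POLD3) with trametinib, with a median of 16.7%. They spanned 14.4% (POLE2) to 85.8% (RPA1) with panobinostat, with a median of 35.2%, and 3.62% (CDC45) to 92.5% (RPA3) with the combination, with a median of 20.8%. Levels under 10% of vehicle were reached by 10 genes with trametinib and 11 with the combination, and by 0 with panobinostat. In these bulk samples, fewer replicating cells and less RNA per cell cannot be told apart.

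**Figure D1:**
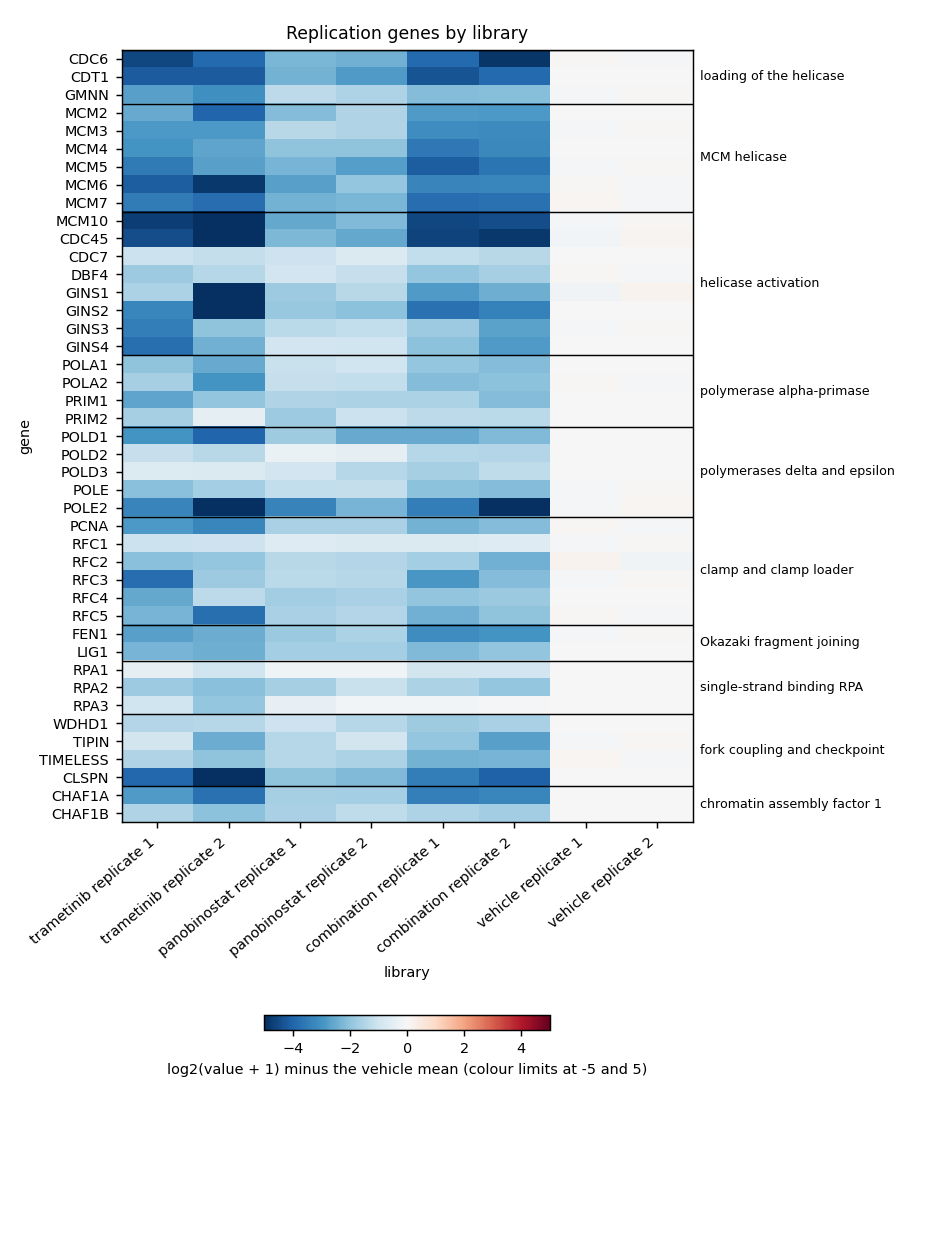
Normalised level of the 43 replication genes (rows, grouped by role) in each of the 8 libraries (columns), as log2(value + 1) minus the mean of the vehicle libraries; colours saturate at -5 and 5. All treated libraries lie below vehicle, some only slightly, as for RPA1 and POLD2 with panobinostat; the panobinostat libraries are paler than the trametinib libraries for most genes, and trametinib replicate 2 departs from replicate 1 at CDC45, GINS1, POLE2 and CLSPN.

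All 3 genes of helicase loading and its control, CDC6, CDT1 and GMNN, were lower with each treatment. CDT1, which brings the MCM ring to origins, had 70.2 and 70.3 in trametinib libraries, 249.8 and 182 in panobinostat libraries and 64.4 and 85.2 in combination libraries, against 1290.4 and 1285 in vehicle libraries. Both libraries of each treated group were far below vehicle, with trametinib and the combination at similar levels and panobinostat between. Its log2 change was -4.18 ± 0.22 (SE) with trametinib, -2.59 ± 0.22 with panobinostat and -4.10 ± 0.22 with the combination (limma adjusted p 5.94e-07, 5.29e-05 and 8.35e-07). CDC6, the ATPase that loads the ring together with CDT1, had 40.1 and 65.3 in trametinib libraries, 198 and 183 in panobinostat libraries and 64.4 and 31.9 in combination libraries, against 999.7 and 941 in vehicle libraries. The combination and trametinib libraries overlapped for CDC6, and its log2 changes were -4.22 ± 0.35, -2.35 ± 0.35 and -4.39 ± 0.35 in the same order. GMNN, the inhibitor of CDT1, had 121 and 93.4 in trametinib libraries, 316 and 268 in panobinostat libraries and 174 and 181 in combination libraries, against 770.4 and 818 in vehicle libraries. Its groups did not overlap, and its log2 changes of -2.89 ± 0.18, -1.44 ± 0.18 and -2.15 ± 0.18 were the smallest of these 3 genes in each comparison.

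All 6 genes of the MCM ring, the replicative helicase, were lower with each treatment. MCM4 had 435 and 556 in trametinib libraries, 844 and 853 in panobinostat libraries and 286 and 364 in combination libraries, against 3451 and 3442 in vehicle libraries. The combination libraries were the lowest and the panobinostat libraries the highest of the treated ones, without overlap. Its log2 changes were -2.81 ± 0.14 with trametinib, -2.02 ± 0.14 with panobinostat and -3.42 ± 0.14 with the combination (adjusted p 4.24e-07, 2.02e-05 and 1.95e-07, limma). MCM3 had 379 and 379.8 in trametinib libraries, 1045 and 969 in panobinostat libraries and 317 and 303 in combination libraries, against 2647 and 2859.6 in vehicle libraries. It showed the same order, and its trametinib replicates were nearly equal. Its log2 changes were -2.85 ± 0.10, -1.45 ± 0.10 and -3.15 ± 0.10.

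MCM6 had 46.1 and 28.1 in trametinib libraries, 123 and 215 in panobinostat libraries and 81.9 and 85.2 in combination libraries, against 862 and 777 in vehicle libraries. Here trametinib, not the combination, gave the lowest libraries, and the log2 changes were -4.47 ± 0.32 with trametinib, -2.32 ± 0.32 with panobinostat and -3.28 ± 0.32 with the combination. MCM5 had 111 and 196 in trametinib libraries, 255 and 188 in panobinostat libraries and 72.6 and 100.4 in combination libraries, against 1217 and 1355 in vehicle libraries. Its panobinostat replicate 2 fell below trametinib replicate 2, so these groups overlapped, and its change of -2.55 ± 0.29 was among the 3 largest that passed under panobinostat. MCM7 had 128 and 104 in trametinib libraries, 284 and 301 in panobinostat libraries and 104 and 109.5 in combination libraries, against 1564 and 1365 in vehicle libraries. Trametinib and combination libraries overlapped for MCM7, at log2 changes of -3.65 ± 0.17 and -3.76 ± 0.17. MCM2 completed the ring, at -3.26, -1.83 and -2.84 with trametinib, panobinostat and the combination.

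Among the 8 genes of helicase activation, all 8 were lower with trametinib, 4 with panobinostat and 7 with the combination. MCM10, which binds the active helicase and aids its start, had 30.1 and 21.1 in trametinib libraries, 139 and 177 in panobinostat libraries and 34.0 and 36.5 in combination libraries, against 794 and 838 in vehicle libraries. Trametinib and combination libraries all lay under 37, and panobinostat libraries lay between these and vehicle. Its log2 changes were -4.96 ± 0.29 with trametinib, -2.37 ± 0.29 with panobinostat and -4.50 ± 0.29 with the combination (limma adjusted p 9.35e-07, 3.50e-04 and 2.12e-06). DBF4, the activating partner of CDC7, had 233 and 301 in trametinib libraries, 422 and 363 in panobinostat libraries and 215 and 257 in combination libraries, against 859 and 781 in vehicle libraries. Its combination and trametinib libraries overlapped, and its log2 changes of -1.62 ± 0.17, -1.06 ± 0.17 and -1.79 ± 0.17 were smaller than those of MCM10. CDC7 itself changed by -1.14, -0.86 and -1.31.

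CDC45, which joins MCM and GINS in the active helicase, had 37.1 and 0 in trametinib libraries, 172 and 137 in panobinostat libraries and 31.6 and 27.4 in combination libraries, against 749 and 882 in vehicle libraries. Trametinib replicate 2 held no read of CDC45 and replicate 1 held 37, and the other treated libraries spread from 27.4 to 172. Its log2 change with trametinib was -7.04 ± 1.26, and -4.42 without trametinib replicate 2. With panobinostat CDC45 had a log2 difference of -2.40 ± 1.26, which did not pass (adjusted p 0.186, limma), although both panobinostat libraries were below both vehicle libraries. It passed as lower in the fit without trametinib replicate 2, whose spread otherwise enters every comparison.

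The GINS complex binds CDC45 and MCM in the active helicase. GINS1 had 68.2 and 1.00 in trametinib libraries, 59.1 and 78.7 in panobinostat libraries and 28.1 and 38.0 in combination libraries, against 185 and 236 in vehicle libraries. Trametinib replicate 2 held 1 read and replicate 1 held 68, so the trametinib group overlapped the panobinostat group and spanned the combination group. The log2 change of GINS1 was -4.16 ± 1.25 with trametinib (adjusted p 0.0202, limma), and -1.60 without trametinib replicate 2. With panobinostat it was -1.60 ± 1.25 and with the combination -2.64 ± 1.25, and neither passed (adjusted p 0.38 and 0.108). GINS2, GINS3 and GINS4 changed by -4.15, -2.73 and -3.09 with trametinib and by -3.55, -2.25 and -2.44 with the combination, and all of these passed. With panobinostat GINS2 passed at -1.98, and GINS3 and GINS4 had -1.30 and -0.98 without passing.

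Polymerase alpha-primase, which starts each new strand, had 3 of 4 genes lower with trametinib and 4 of 4 with panobinostat and with the combination. POLA2, its accessory subunit, had 259.8 and 103 in trametinib libraries, 367 and 357 in panobinostat libraries and 183 and 199 in combination libraries, against 868 and 789 in vehicle libraries. The 2 trametinib libraries lay on either side of the combination libraries, and the log2 changes were -2.33 ± 0.34, -1.19 ± 0.34 and -2.11 ± 0.34 with trametinib, panobinostat and the combination. PRIM2, the large primase subunit, had 69.2 and 163 in trametinib libraries, 62.2 and 103 in panobinostat libraries and 87.8 and 86.7 in combination libraries, against 216 and 224 in vehicle libraries. Trametinib replicate 2 was the highest treated library, still below vehicle. PRIM2 was the only gene of the 43 that did not pass with trametinib (-1.04 ± 0.40, adjusted p 0.0556, limma). It changed by -1.45 ± 0.40 with panobinostat and -1.32 ± 0.40 with the combination. POLA1, the catalytic subunit, and PRIM1, the catalytic primase subunit, changed by -2.26 and -2.30 with trametinib.

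Of polymerases delta and epsilon, which extend the primers, all 5 genes were lower with trametinib and with the combination and 4 with panobinostat. POLD2, an accessory subunit of polymerase delta, had 899 and 768 in trametinib libraries, 1577 and 1462 in panobinostat libraries and 742 and 719.6 in combination libraries, against 2036 and 1967 in vehicle libraries. Panobinostat libraries stayed closest to vehicle, and the log2 changes were -1.27 ± 0.10, -0.40 ± 0.10 and -1.45 ± 0.10 with trametinib, panobinostat and the combination. POLD1, the catalytic subunit of polymerase delta, had 69.2 and 34.2 in trametinib libraries, 160.1 and 94.8 in panobinostat libraries and 96.0 and 119 in combination libraries, against 554 and 557 in vehicle libraries. Its panobinostat and combination libraries overlapped, and its log2 changes were -3.48 ± 0.37, -2.16 ± 0.37 and -2.37 ± 0.37.

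POLD3, a further subunit of polymerase delta, had 236 and 226 in trametinib libraries, 193 and 141 in panobinostat libraries and 117 and 154 in combination libraries, against 374 and 378 in vehicle libraries. Unlike most of the set it was higher in trametinib libraries than in the other treated libraries. Its log2 change was -0.70 ± 0.22 with trametinib, -1.18 ± 0.22 with panobinostat and -1.48 ± 0.22 with the combination. POLE2, the second subunit of polymerase epsilon, had 17.1 and 0 in trametinib libraries, 16.3 and 34.3 in panobinostat libraries and 15.2 and 3.04 in combination libraries, against 164 and 187 in vehicle libraries. Trametinib replicate 2 held 0 reads and combination replicate 2 held 2, and all 6 treated libraries held at most 34 reads, against 236 or more in vehicle libraries. The log2 change of POLE2 was -5.37 ± 1.25 with trametinib and -3.29 without trametinib replicate 2. It was -2.83 ± 1.25 with panobinostat, which did not pass (adjusted p 0.12, limma), and -4.44 ± 1.25 with the combination. POLE, the catalytic subunit of polymerase epsilon, changed by -1.89, -1.21 and -2.11.

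In the clamp and loader group all 6 genes were lower with trametinib and with the combination and 5 with panobinostat. PCNA, the sliding clamp, had 233 and 181 in trametinib libraries, 558 and 568 in panobinostat libraries and 334 and 386 in combination libraries, against 1779.7 and 1678 in vehicle libraries. Panobinostat libraries were the highest of the treated groups and trametinib libraries the lowest, without overlap. Its log2 changes were -3.07 ± 0.14 with trametinib, -1.62 ± 0.14 with panobinostat and -2.26 ± 0.14 with the combination (limma adjusted p 2.61e-07, 6.22e-05 and 2.11e-06). The exception with panobinostat was RFC3, a loader subunit, at -1.39 ± 0.52 (adjusted p 0.0707, limma). Its panobinostat libraries still lay below both vehicle libraries, and edgeR on recovered reads called it lower (adjusted p 0.0299, edgeR). RFC1, the large loader subunit, changed the least, at -1.05, -0.69 and -0.69. PCNA, RFC3 and RFC5 are among 7 of the 43 genes with annotated pseudogenes named after them, and reads shared with those copies make their values uncertain.

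FEN1, the flap nuclease, and LIG1, the ligase, which finish the fragments of the lagging strand, were both lower with each treatment. FEN1 had 153 and 181 in trametinib libraries, 278 and 339.8 in panobinostat libraries and 117 and 126 in combination libraries, against 971 and 1043 in vehicle libraries. The combination libraries were the lowest and did not overlap the trametinib libraries. Its log2 changes were -2.59 ± 0.17, -1.71 ± 0.17 and -3.04 ± 0.17 with trametinib, panobinostat and the combination. LIG1 had 137 and 127 in trametinib libraries, 215 and 214 in panobinostat libraries and 149 and 173 in combination libraries, against 691 and 694 in vehicle libraries. Its combination libraries lay above its trametinib libraries, and its changes were -2.38 ± 0.17, -1.69 ± 0.17 and -2.10 ± 0.17.

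RPA, which covers single-stranded DNA in replication and also in repair, had the highest median share of the vehicle level of the 10 role groups under each treatment, at 38.05% with trametinib, 83.8% with panobinostat and 52.6% with the combination. Its 3 genes were all lower with trametinib, but 1 of 3 was lower with panobinostat and 2 of 3 with the combination. RPA1, the large subunit, had 536 and 381 in trametinib libraries, 647 and 648 in panobinostat libraries and 404 and 389 in combination libraries, against 739 and 770.3 in vehicle libraries. Panobinostat libraries were near vehicle, and the log2 changes were -0.74 ± 0.15 with trametinib, -0.22 ± 0.15 with panobinostat, which did not pass (adjusted p 0.324, limma), and -0.93 ± 0.15 with the combination. RPA3, the small subunit, had 174 and 91.4 in trametinib libraries, 263 and 321 in panobinostat libraries and 313 and 332 in combination libraries, against 345 and 351 in vehicle libraries. Trametinib libraries were the only treated libraries far below vehicle. RPA3 changed by -1.46 ± 0.27 with trametinib, and its differences of -0.26 ± 0.27 with panobinostat and -0.11 ± 0.27 with the combination did not pass (adjusted p 0.516 and 0.758). Exons of RPA3 overlap genes on the opposite strand, whose reads cannot be told apart without strand. RPA2 changed by -1.97, -1.39 and -1.76, and all 3 changes passed.

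The 4 genes that couple the fork and signal its stalling were all lower with trametinib and with the combination, and 2 of 4 with panobinostat. TIMELESS, which holds polymerase and helicase together, had 328 and 230.1 in trametinib libraries, 352 and 309.6 in panobinostat libraries and 180.3 and 189 in combination libraries, against 1012 and 868 in vehicle libraries. The combination libraries were the lowest, and the log2 changes were -1.77 ± 0.19, -1.50 ± 0.19 and -2.34 ± 0.19 with trametinib, panobinostat and the combination. CLSPN (claspin), which passes the stalled-fork signal to CHK1, had 41.1 and 0 in trametinib libraries, 157 and 138 in panobinostat libraries and 57.4 and 38.0 in combination libraries, against 639 and 632 in vehicle libraries. Trametinib replicate 2 held no read of CLSPN and replicate 1 held 41. Its log2 change with trametinib was -6.62 ± 1.29, and -3.92 without trametinib replicate 2. It was -2.10 ± 1.29 with panobinostat, which did not pass (adjusted p 0.26, limma), and -3.74 ± 1.29 with the combination. TIPIN, the partner of TIMELESS, had -1.70 with trametinib and -2.32 with the combination, which passed, and -1.17 with panobinostat, which did not. WDHD1, which links polymerase alpha to the helicase, changed by -1.45, -1.23 and -1.71.

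Chromatin assembly factor 1 places new histones behind the fork, and both of its listed genes were lower with each treatment. CHAF1A, the large subunit, had 155 and 82.4 in trametinib libraries, 348 and 339.8 in panobinostat libraries and 103 and 114 in combination libraries, against 1089 and 1115 in vehicle libraries. Combination and trametinib libraries overlapped, and panobinostat libraries lay between these and vehicle. Its log2 changes were -3.27 ± 0.26, -1.68 ± 0.26 and -3.33 ± 0.26 with trametinib, panobinostat and the combination. CHAF1B changed by -1.78, -1.45 and -1.62.

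**Figure D2:**
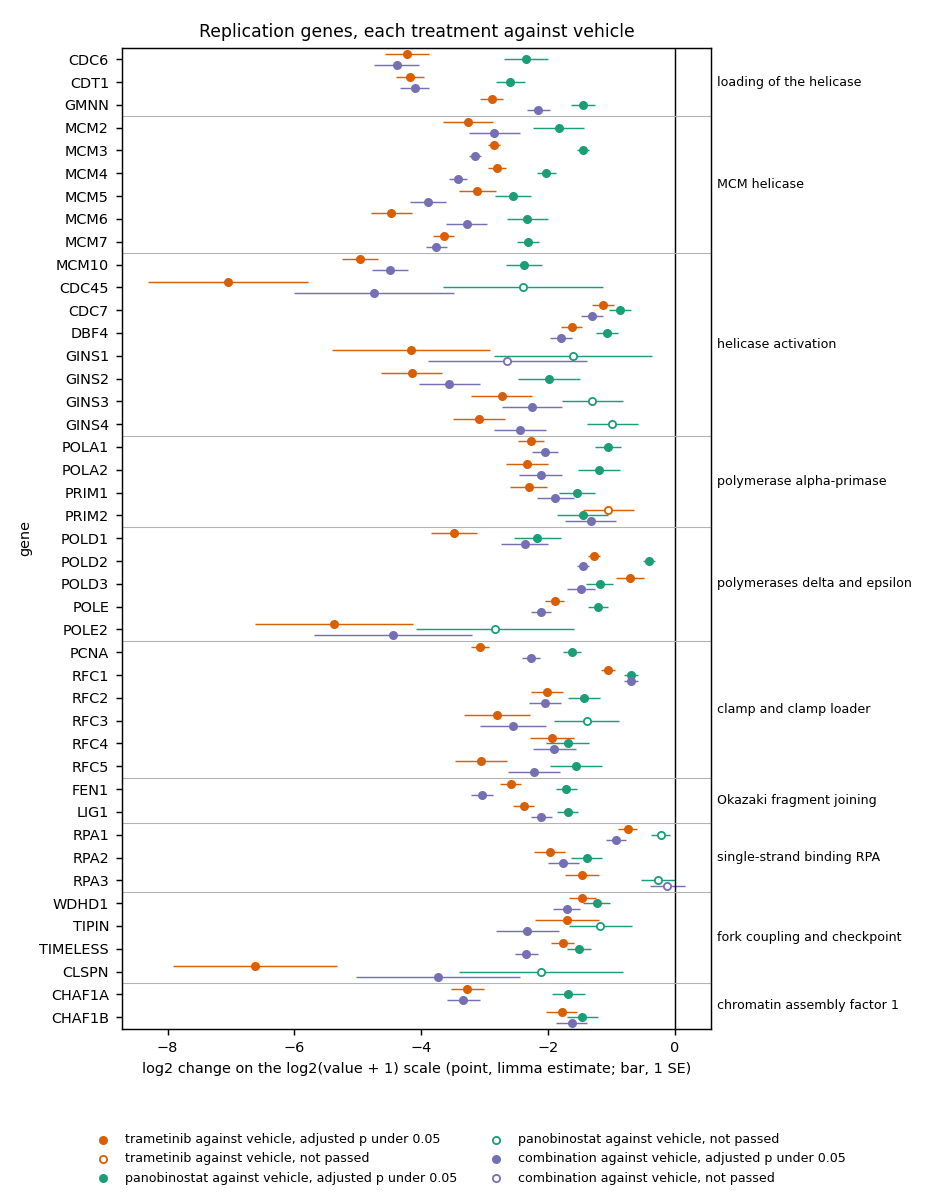
Log2 change against vehicle, on the log2(value + 1) scale, of the 43 replication genes with trametinib (orange), panobinostat (green) and the combination (purple); points are limma estimates, bars are 1 SE, and open points did not pass an adjusted p of 0.05. All points lie left of 0, and the long bars belong to CDC45, GINS1, POLE2 and CLSPN, whose trametinib replicate 2 held 0 or 1 read.

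The 10 genes that did not pass with panobinostat in the main fit were CDC45, GINS1, GINS3, GINS4, POLE2, RFC3, RPA1, RPA3, TIPIN and CLSPN. All groups share 1 estimate of the spread in that fit. The scatter of the trametinib libraries thus enters the panobinostat counts by role given above. With only the panobinostat and vehicle libraries in the fit, 42 of 43 genes passed as lower, where 3768 of 13320 genes tested did. With edgeR on recovered reads 39 passed as lower, all but GINS1, RPA1, RPA3 and TIPIN, where 2193 of all genes tested did. With DESeq2 on recovered reads 35 passed as lower, where 2626 of all genes tested did. With trametinib, the calls of POLD3, GINS1 and TIPIN did not hold without vehicle replicate 1 or without vehicle replicate 2. Those of GINS1 and TIPIN were also lost with only the groups compared, and that of GINS1 with DESeq2 on recovered reads. With the combination, the calls of CDC45, CLSPN, POLE2 and PRIM2 were lost on leaving out either vehicle library, and each of them also on leaving out a combination library. The call of CLSPN was also lost without panobinostat replicate 1 or 2. With panobinostat, the calls of GINS2, POLA2, PRIM2, RFC5, CDC7, MCM2, POLD2 and RFC4 were each lost on leaving out at least 1 of the vehicle or panobinostat libraries.

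The sequence before the starts of the genes was examined for letters fixed in the plan. Many of these genes are known E2F targets, so their share of matches does not bear on the drugs. RefSeq promoters of 250 bases before to 50 bases after the start (GRCh38.p14, not the build listed for the reads, and matched by symbol) were given for 37 of the 43 genes. Promoters of 17 of the 37, or 45.9%, held TTTCGCGC, TTTGGCGC, TTTCCCGC or TTTGCCGC on either strand, 4 versions of the letters that E2F factors bind, where 3.33% of 27305 promoters in the table held them. In 14 genes a match lay from 60 bases before to 10 bases after the start. The 23 matches included 6 that overlapped another match of this kind and 1 that overlapped a CCAAT box. The letters CCAAT, searched on both strands, were in 20 of 37 (54.1%), against 35.7% of all promoters, and TTTGAA, the core of the cell cycle homology region, was in 1 of 37 (2.70%), against 15.4%. A match of letters is a description, not a binding site, and other versions of the letters were not searched. The window of CDC45, for one, holds TTTGGCGG, which differs from TTTGGCGC in its last letter and was not counted. Of the genes described above, MCM6, PCNA and CLSPN are shown as examples with a match, and CDC45 and RPA1 as examples without one at either end of the range of change. They were chosen after their values were seen, and capitals mark the matched letters, which in MCM6 are overlapping pairs on opposite strands.
MCM6 promoter, chr2:135876394-135876693, minus strand: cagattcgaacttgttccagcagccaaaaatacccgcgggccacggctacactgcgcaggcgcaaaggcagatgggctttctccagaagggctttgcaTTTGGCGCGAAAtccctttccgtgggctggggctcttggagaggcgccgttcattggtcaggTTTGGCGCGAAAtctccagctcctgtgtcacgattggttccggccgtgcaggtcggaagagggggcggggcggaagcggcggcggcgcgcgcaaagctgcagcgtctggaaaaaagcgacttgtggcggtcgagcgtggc
PCNA promoter, chr20:5126573-5126872, minus strand: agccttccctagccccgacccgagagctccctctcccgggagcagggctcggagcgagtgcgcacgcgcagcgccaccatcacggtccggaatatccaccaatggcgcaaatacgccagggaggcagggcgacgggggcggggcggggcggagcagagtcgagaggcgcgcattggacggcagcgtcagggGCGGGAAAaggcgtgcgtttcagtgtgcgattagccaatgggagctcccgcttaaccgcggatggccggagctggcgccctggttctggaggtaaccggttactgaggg
CLSPN promoter, chr1:35769929-35770228, minus strand: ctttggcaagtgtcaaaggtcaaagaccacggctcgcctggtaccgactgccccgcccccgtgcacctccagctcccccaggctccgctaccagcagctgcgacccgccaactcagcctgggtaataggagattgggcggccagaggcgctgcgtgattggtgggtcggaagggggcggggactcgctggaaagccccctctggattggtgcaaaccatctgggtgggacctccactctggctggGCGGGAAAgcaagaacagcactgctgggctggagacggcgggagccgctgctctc
CDC45 promoter, chr22:19479670-19479969, plus strand: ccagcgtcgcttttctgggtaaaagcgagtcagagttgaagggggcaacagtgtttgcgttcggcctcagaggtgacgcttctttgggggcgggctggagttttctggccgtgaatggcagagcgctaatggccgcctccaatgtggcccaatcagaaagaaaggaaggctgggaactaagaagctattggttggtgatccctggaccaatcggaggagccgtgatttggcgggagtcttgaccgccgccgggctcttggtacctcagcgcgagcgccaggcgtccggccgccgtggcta
RPA1 promoter, chr17:1829755-1830054, plus strand: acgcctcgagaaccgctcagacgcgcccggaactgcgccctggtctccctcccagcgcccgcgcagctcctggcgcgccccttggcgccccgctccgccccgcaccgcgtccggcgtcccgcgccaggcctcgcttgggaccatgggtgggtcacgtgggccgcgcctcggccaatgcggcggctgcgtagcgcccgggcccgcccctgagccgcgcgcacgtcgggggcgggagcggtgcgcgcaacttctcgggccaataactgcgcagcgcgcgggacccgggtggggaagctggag

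The 17 genes with a match had a median log2 change of -3.26 with trametinib, -1.69 with panobinostat and -2.84 with the combination. The 20 genes without one had medians of -1.86, -1.45 and -1.97 in the same order. The ranges overlapped: with trametinib the genes with a match ran from -6.62 (CLSPN) to -1.89 (POLE), and those without from -7.04 (CDC45) to -0.74 (RPA1). CDC45, with none of the searched letters in its window, had -4.42 without trametinib replicate 2. No test was made of these medians.

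Adding panobinostat to trametinib moved few of the replication genes. Against trametinib alone, the combination had 4 of 43 genes lower (9.30%) and 6 higher (14.0%), where 15.2% of all tested genes were lower and 17.6% higher, so the shares of the replication genes were no larger than the background. The median log2 difference was 0.21, and the means of 23 genes were lower in trametinib than in the combination. The 4 lower genes were POLD3 (-0.78 ± 0.22, adjusted p 0.0223), MCM4 (-0.61 ± 0.14, 0.0101), TIMELESS (-0.57 ± 0.19, 0.0409) and MCM3 (-0.29 ± 0.10, 0.0441), all by limma. The 6 higher genes were RPA3 (1.35 ± 0.27, adjusted p 0.0047), MCM6 (1.19 ± 0.32, 0.0199), POLD1 (1.12 ± 0.37, 0.0421), PCNA (0.80 ± 0.14, 0.00257), GMNN (0.73 ± 0.18, 0.0136) and RFC1 (0.36 ± 0.11, 0.0328).

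Among the genes that passed, RPA3 showed the largest positive difference, with 313 and 332 in combination libraries, against 174 and 91.4 in trametinib libraries, and its call held under all 15 alternatives. PCNA, with 334 and 386 in combination libraries against 233 and 181 in trametinib libraries, lost its call only when the fit was restricted to these groups. MCM3, POLD1, RFC1 and TIMELESS each lost the call in 8 or 9 alternatives, MCM6 in 5, POLD3 in 4, GMNN in 3 and MCM4 in 2. The 5 for MCM6 were the fits without either vehicle library, without either combination library and with only the groups compared. The counts of lower and of higher genes rose without either trametinib library. They fell without any 1 of the vehicle, panobinostat or combination libraries. The counts over all tested genes moved the same way in each of these fits. The median difference was -0.008 without trametinib replicate 2. MCM genes had differences of both signs: MCM3 and MCM4 passed as lower, MCM6 as higher, and MCM2, MCM5 and MCM7 had 0.42, -0.78 and -0.12 without passing. None of these MCM calls held with only the groups compared.

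Adding trametinib to panobinostat lowered replication genes further. Against panobinostat alone, 19 of 43 genes were lower with the combination and 0 higher, where 13.1% of all tested genes were lower and 10.9% higher. At an unadjusted p under 0.05 the counts were 26 and 0, and edgeR called 21 lower and 0 higher and DESeq2 20 lower and 0 higher. The median log2 difference was -0.95. Among the genes that passed, the largest falls were those of MCM10 (-2.12 ± 0.29), CDC6 (-2.04 ± 0.35) and MCM3 (-1.70 ± 0.10), with adjusted p 6.38e-04, 0.00253 and 3.58e-06 by limma.

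All 3 loading genes were lower with the combination than with panobinostat, as were 4 of 6 MCM genes, 4 of 8 genes of helicase activation, 1 of 4 of polymerase alpha-primase and 2 of 5 of polymerases delta and epsilon. In the clamp and loader group 1 of 6 was lower, which was PCNA, with 334 and 386 in combination libraries against 558 and 568 in panobinostat libraries. POLD1, RFC1 and RPA3 had -0.21, -0.00 and 0.15 without passing, and the groups overlapped for all 3. The count of 19 rose without either trametinib library and fell without any 1 of the vehicle, panobinostat or combination libraries. The count over all tested genes moved the same way in each of these fits. Of the 19 calls, 9 were lost in at least 1 alternative.

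**Figure D3:**
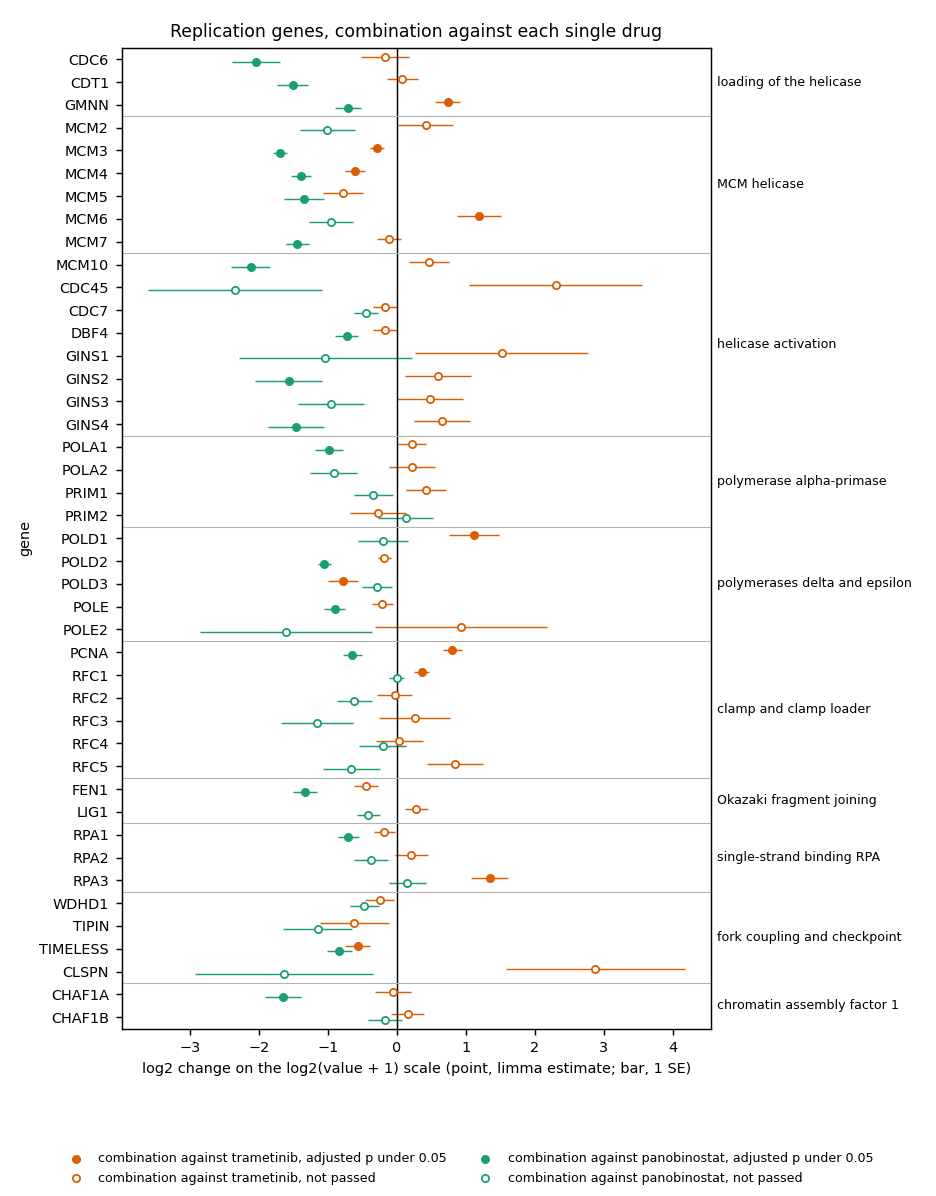
Log2 difference of the combination against trametinib (orange) and against panobinostat (green) for the 43 replication genes, on the log2(value + 1) scale; points are limma estimates, bars are 1 SE, and open points did not pass an adjusted p of 0.05. Orange points scatter on both sides of 0, with 4 filled points to the left and 6 to the right, and the 19 filled green points lie to the left.

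Set directly against each other, trametinib left lower replication levels than panobinostat, across libraries whose sample records are numbered apart. Against panobinostat, 28 of 43 genes were lower with trametinib and 0 higher, where 23.4% of all tested genes were lower and 18.7% higher. At an unadjusted p under 0.05 the counts were 32 and 0, and edgeR and DESeq2 each called 28 lower and 0 higher. The median log2 difference was -1.20, and 41 of 43 genes had the lower mean with trametinib. The exceptions were POLD3 (0.48 ± 0.22, adjusted p 0.103, limma) and PRIM2 (0.40 ± 0.40, adjusted p 0.449), which did not pass.

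The largest falls relative to panobinostat were those of CDC45 (-4.65 ± 1.26), CLSPN (-4.51 ± 1.29) and MCM10 (-2.59 ± 0.29). Without trametinib replicate 2, which held no read of CDC45 or CLSPN, these were -2.02, -1.82 and -2.34. DESeq2 on recovered reads called neither CDC45 nor CLSPN here. The count of 28 rose without either trametinib library and fell without any 1 of the vehicle, panobinostat or combination libraries. The count over all tested genes moved the same way in each of these fits. Of the 28 calls, 13 were lost in at least 1 alternative. By role, all 3 loading genes, 5 of 6 MCM genes and 6 of 8 genes of helicase activation were lower, against 3 of 6 in the clamp and loader group and 1 of 4 among fork coupling genes, which was CLSPN.

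The interaction asked whether the drugs' changes added up on the log2 scale. It sets the effect of panobinostat in cells that also had trametinib (combination minus trametinib) against its effect without trametinib (panobinostat minus vehicle), so a positive value means that panobinostat lowered a gene less in the presence of trametinib than in its absence. It was positive for all 43 genes, from 0.03 (RPA1) to 4.98 (CLSPN), with a median of 1.63, except that without trametinib replicate 2 it was -0.21 for RPA1 and -0.22 for TIPIN, and with edgeR -0.016 for RPA1. It passed as positive for 29 of 43 genes and as negative for 0, where 10.2% of all tested genes passed as positive and 9.04% as negative. At an unadjusted p under 0.05 the counts were 35 and 0, and edgeR and DESeq2 each called 30 positive and 0 negative. Trametinib alone already left the 43 genes at a median of 16.7% of vehicle, 10 of them under 10%. Whether such low levels left less room for a further fall was not tested.

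PCNA had the smallest adjusted p (2.42 ± 0.20, adjusted p 7.88e-05, limma). Panobinostat changed PCNA by -1.62 against vehicle, and the combination changed it by 0.80 against trametinib. Next came MCM7 (2.20 ± 0.24), MCM3 (1.16 ± 0.14), GMNN (2.18 ± 0.26), CDT1 (2.67 ± 0.32), LIG1 (1.97 ± 0.24), MCM6 (3.51 ± 0.46) and MCM10 (2.84 ± 0.40). For CDT1, panobinostat gave -2.59 against vehicle and 0.08 when added to trametinib. For MCM6 these were -2.32 and 1.19, and for POLD1 -2.16 and 1.12. Both genes fell with panobinostat alone and had positive differences when it was added to trametinib. The calls of these positive differences were lost in 5 alternatives for MCM6 and in 9 for POLD1, edgeR among the latter.

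By role, the interaction passed for all 3 loading genes, all 6 MCM genes, both Okazaki fragment genes, both chromatin assembly genes and 5 of 6 clamp and loader genes. It passed for 3 of 8 genes of helicase activation, 2 of 4 of polymerase alpha-primase, 2 of 5 of polymerases delta and epsilon, 2 of 3 of RPA and 2 of 4 of fork coupling. CLSPN, CDC45, POLE2 and GINS1 had the values 4.98 ± 1.83, 4.70 ± 1.78, 3.76 ± 1.77 and 3.12 ± 1.77 without passing. Without trametinib replicate 2 they were 2.28, 2.07, 1.68 and 0.56. The count of 29 fell without any 1 of the vehicle, panobinostat or combination libraries and rose without either trametinib library. The count over all tested genes moved the same way in each of these fits. Of the 29 calls, 18 were lost in at least 1 alternative.

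**Figure D4:**
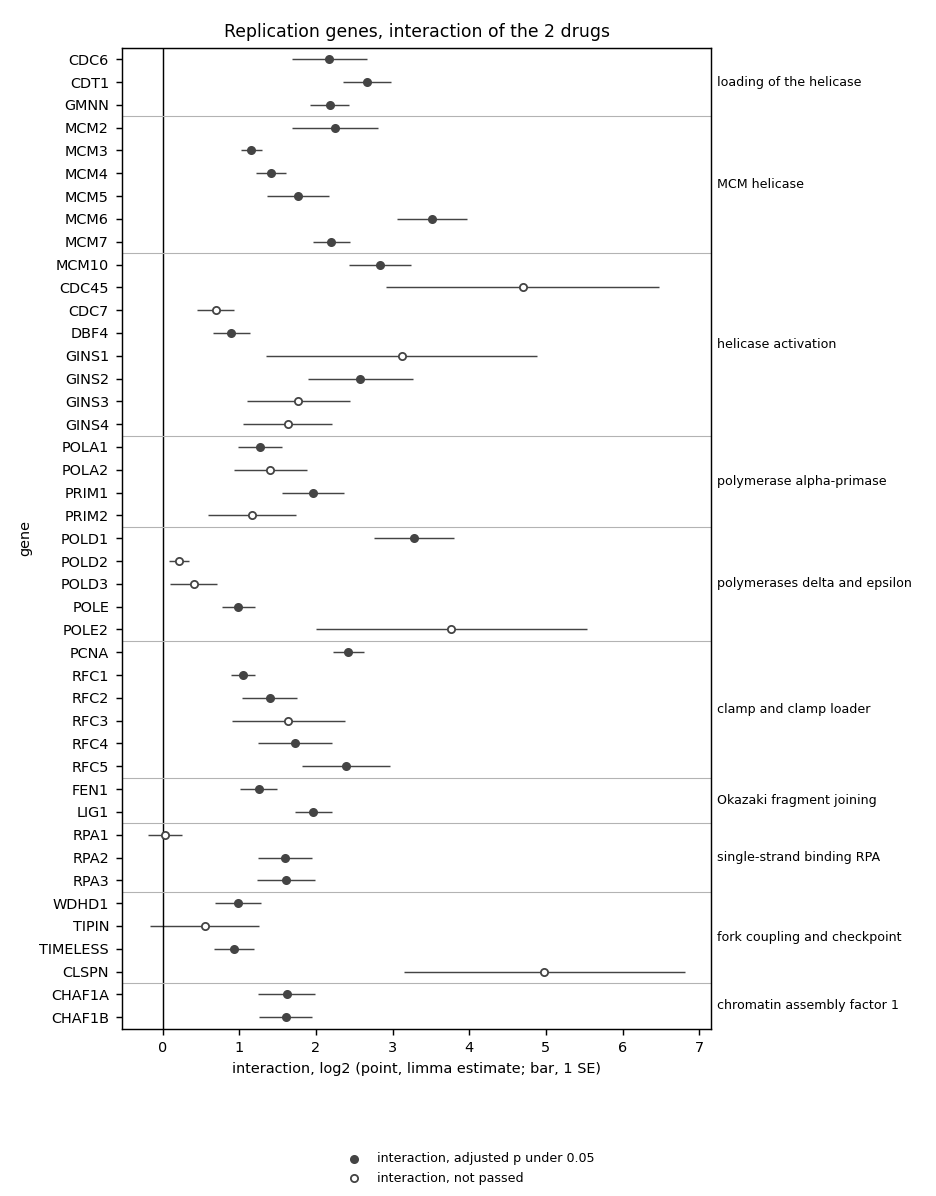
Interaction of the 2 drugs on the log2 scale for the 43 replication genes, grouped by role; points are limma estimates, bars are 1 SE, and open points did not pass an adjusted p of 0.05. All 43 points lie right of 0, 29 of them filled, and RPA1, which lies closest to 0, was negative with edgeR and, like TIPIN, without trametinib replicate 2.

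A list of 29 other genes of replication was set beside the 43. In this list 24 genes were lower and 2 higher with trametinib, 18 lower and 1 higher with panobinostat, and 22 lower and 2 higher with the combination, against the same backgrounds of all tested genes. With trametinib the smallest adjusted p belonged to C15orf42 (-4.13 ± 0.22), ATAD5 (-3.24 ± 0.23), which helps unload PCNA, DTL (-3.60 ± 0.25), which marks CDT1 for destruction, and MCMBP (-1.64 ± 0.12), a binding partner of MCM proteins. With panobinostat it belonged to DONSON (-1.91 ± 0.19), TOPBP1 (-1.27 ± 0.14), MCMBP (-1.07 ± 0.12) and ATAD5 (-1.95 ± 0.23). With the combination it belonged to ORC6 (-3.61 ± 0.24), DTL (-3.79 ± 0.25), TOPBP1 (-1.94 ± 0.14) and MCMBP (-1.55 ± 0.12).

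POLD4 and ORC4 were the genes of this list that were higher with trametinib and with the combination, and they are named after their values were seen. ORC4, a subunit of the origin recognition complex, had 1253 and 1212 in trametinib libraries, 1149 and 1194 in panobinostat libraries and 1454 and 1719 in combination libraries, against 817 and 776 in vehicle libraries. All 6 treated libraries lay above both vehicle libraries, at log2 changes of 0.63 ± 0.10, 0.56 ± 0.10 and 0.99 ± 0.10. POLD4, the small subunit of polymerase delta, had 331 and 210.0 in trametinib libraries, 143 and 120.0 in panobinostat libraries and 205 and 248 in combination libraries, against 122 and 107 in vehicle libraries. Its panobinostat replicate 2 lay below vehicle replicate 1, and it changed by 1.20 ± 0.26 with trametinib and 0.98 ± 0.26 with the combination, while its panobinostat difference of 0.20 ± 0.26 did not pass.

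In the same list, the combination had 3 of 29 genes lower (10.3%) and 4 higher (13.8%) than trametinib, both below the 15.2% and 17.6% of all tested genes. The smallest adjusted p belonged to RNASEH2C (1.68 ± 0.25), C15orf42 (1.33 ± 0.22), ASF1A (1.09 ± 0.20) and POLE3 (-0.74 ± 0.15). It had 13 lower (44.8%) and 1 higher (3.45%) than panobinostat, against 13.1% and 10.9% of all tested genes, led by DTL (-1.85 ± 0.25), ORC6 (-1.61 ± 0.24), POLE3 (-0.99 ± 0.15) and C15orf42 (-1.14 ± 0.22). Trametinib had 15 lower (51.7%) and 2 higher (6.90%) than panobinostat, against 23.4% and 18.7%, led by C15orf42 (-2.47 ± 0.22), DTL (-1.65 ± 0.25), RECQL4 (-1.73 ± 0.29) and ATAD5 (-1.29 ± 0.23). The interaction passed as positive for 15 of the 29 (51.7%) and as negative for 0, against 10.2% and 9.04% of all tested genes, and limma at an unadjusted p under 0.05 gave 17 and 0.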

How the data were processed

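RNA of 8 libraries of 92.1 cells, prepared per the labels with a NuGEN Ovation FFPE kit from total RNA, was read as 1 table of normalised signal per gene and library, deposited by the authors. The submitters' processing notes name TopHat2 2.0.13, Cufflinks 2.2.1 and DESeq2, and list build hs37d5 for 4 libraries (vehicle and trametinib); the annotation and whether strand was counted are not given in the sources used here. Without strand, 15 of the 43 genes whose exons overlap a gene on the opposite strand are uncertain, as are 7 with pseudogenes named after them. Exons of POLA2, PRIM1, POLD1, POLD3, FEN1, TIPIN and CHAF1B overlap a gene on the same strand, which knowing the strand would not settle.

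The deposited signal values were whole multiples of 1 step per library, 0.602 to 1.52. Division by it gave whole reads for 100% of values within 1e-04 reads, with 6897784 to 16861001 reads per library; an automatic check did not accept this for 3 libraries (both trametinib libraries and panobinostat replicate 2), whose step is close to 1, and the count tests remained alternatives only. Values in the text are the deposited normalised reads. Few reads limit precision, and PCR copies could not be told from separate molecules.

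Changes were tested with limma 3.58.1 (R 4.3.3) with trend on log2(value + 1). This scale understates changes of low genes where replicates are alike, but where 1 replicate held 0 or 1 read the fall with trametinib came out larger than with edgeR: -7.04 and -5.43 for CDC45, -6.62 and -4.92 for CLSPN, -5.37 and -4.33 for POLE2, and -4.16 and -2.58 for GINS1, limma first. All 8 libraries entered 1 fit (4 residual and 5.32 prior degrees of freedom), over the 13320 genes of 18406 with a mean of at least 10, and calls were made at 0.05 after Benjamini-Hochberg adjustment over all of them. The labels do not say whether replicates were separate cultures; the p-values then reflect only the variation of these libraries, possibly technical. Alternatives were a pseudocount of 5, no filter on low values, TMM scaling, edgeR 4.0.16 and DESeq2 1.42.0 on recovered reads, only the groups compared, a replicate block, and each library left out. Scripts were tested on simulated data.

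The members and lists were chosen with earlier results of these data known. All members are named. Values per library are given for 26: in each role the gene with the highest mean, the 3 largest falls and rises of each comparison among genes that passed, genes that did not pass with trametinib or with the combination against vehicle, genes with a library at 0, and the 8 smallest adjusted p of the interaction. In the other replication list up to 4 genes per comparison with the smallest adjusted p are named. Protein sequences were not used here.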

Additional observations from a re-analysis of the deposited data

Results flagged for a closer look

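The interaction term, which tests whether the change with panobinostat differed between cells with and without trametinib, passed for 29 of the 43 replication genes, and these are listed with their log2 values. Among loading genes it was 2.18 for CDC6, 2.67 for CDT1 and 2.18 for GMNN. In the MCM ring it was 2.25 for MCM2, 1.16 for MCM3, 1.41 for MCM4, 1.76 for MCM5, 3.51 for MCM6 and 2.20 for MCM7. In helicase activation it was 2.84 for MCM10, 0.89 for DBF4 and 2.58 for GINS2. Among polymerase genes it was 1.27 for POLA1, 1.96 for PRIM1, 3.28 for POLD1 and 0.99 for POLE. In the clamp and loader group it was 2.42 for PCNA, 1.05 for RFC1, 1.40 for RFC2, 1.72 for RFC4 and 2.39 for RFC5. It was 1.26 for FEN1 and 1.97 for LIG1, 1.59 for RPA2 and 1.61 for RPA3, 0.98 for WDHD1 and 0.93 for TIMELESS, and 1.62 for CHAF1A and 1.61 for CHAF1B.

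The weakest call was that of WDHD1, with an adjusted p of 0.0497 by limma, lost in 9 of 14 alternatives. RFC4 lost its call in 7 alternatives, CHAF1A, DBF4, GINS2, RFC5 and TIMELESS in 6 each, and 18 of the 29 calls were lost in at least 1. Groups of 2 libraries are too small for a test of single outlying libraries.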

How the results depend on the processing

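Over 4472 values of single replication genes under alternatives, 4 changed sign in a comparison where one of the settings made a call, and 41 changed sign with no call in either setting. The 4 were combination against trametinib: GINS1 at -1.04 and POLA2 at -0.44 without trametinib replicate 2 (leave-one-out ranges -1.04 to 4.07 and -0.44 to 0.88), and RFC3 at -0.74 and RFC4 at -0.60 without trametinib replicate 1 (-0.74 to 1.25 and -0.60 to 0.68). The median of that comparison was 0.21, and -0.008 to 0.254 on leaving out single libraries, with the lowest value without trametinib replicate 2. The cause was not tested. With only the groups compared in the fit, residual degrees of freedom were fewer and the spread of the other groups did not enter. The combination then had 1 gene higher and 0 lower than trametinib, where 1148 and 1108 of 13320 genes tested were. It had 30 lower than panobinostat, where 2741 of all were. Trametinib had 17 lower than panobinostat, where 1942 of all were. Panobinostat had 42 lower than vehicle, where 3768 of all were. Leaving out 1 library at a time gave 2 to 16 genes higher and 0 to 10 lower for combination against trametinib, 12 to 34 lower for combination against panobinostat, 17 to 33 lower and 0 to 1 higher for trametinib against panobinostat, and 11 to 39 positive for the interaction. Against vehicle it gave 39 to 43 lower with trametinib, 26 to 41 with panobinostat and 37 to 42 with the combination. Wherever leaving out a library changed one of these counts, the count over all tested genes changed in the same direction. Other settings kept every count of replication genes within 1.5 times.

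Replicate numbers did not pair the libraries (correlations of same-numbered deviations -0.023 to 0.022). With a replicate block the counts were 43 lower with trametinib, 34 with panobinostat and 41 with the combination against vehicle, 3 lower and 6 higher for combination against trametinib, 19 and 29 lower against panobinostat for the combination and for trametinib, and 28 positive for the interaction. Genes with few reads, such as POLE2, are limited by depth.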
